A study of Drosophila melanogaster with 2 samples.

Results

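The microRNA genes of Drosophila melanogaster were examined for nearby peaks of danr-eGFP, taken from chromatin immunoprecipitation followed by sequencing (ChIP-seq) of whole embryos. The members were the annotated precursor genes whose symbol begins with mir-, bantam (annotated as mir-ban) and let-7 (annotated as mir-let7) included. The annotation holds 262 such genes among 17873 genes without transposable elements, and 260 of them lie on the 7 assembled chromosomes. The other 2, mir-10404-1 and mir-10404-2, lie on an unplaced scaffold and were not analysed here. Precursors within 10 kb of each other were merged, which gave 198 loci, 27 of them with more than 1 precursor. A locus was counted when the summit of a peak, its point of highest enrichment, lay within 5 kb of a precursor.

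Embryos aged 0 to 24 h came from flies of the danr-GFP strain, which carry a transgene that fuses danr to eGFP. Chromatin bound by the fusion was recovered with an anti-GFP antibody, and 2 biological replicates of 1 technical replicate each make up the only group, with no untagged, untreated or mutant group beside it. Control libraries are named in the labels but were not analysed here, and no background level stands beside the values. The file descriptions also name a further input to the thresholded lists, whose content is not described and which was not analysed here. If it is a list of excluded regions, some loci could not have held a peak, so a locus without a summit is one without a listed peak. The whole embryo was the sample, so a peak in few cells and a weak peak in many cells cannot be told apart, and no expression was measured against which the tissue could be checked. The promoter that drives the transgene is not stated in the labels.

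The joint list of both replicates, thresholded by the authors on the irreproducible discovery rate (IDR, which scores how well the ranks of peaks repeat), holds 2799 peaks, 2778 of them on the 7 chromosomes. The signal of a peak is the authors' own enrichment value and has no unit. The lists give no read numbers, which leaves the depth unknown. No test of a difference was possible with 1 group, and the values below are descriptions set beside the same values over the genome or over all peaks.

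MicroRNA genes are transcribed by RNA polymerase II as long primary transcripts, alone or inside the introns and exons of host genes. The nuclear enzyme Drosha with its partner Pasha cuts out a hairpin precursor, Dicer-1 trims it to a short duplex, and the Argonaute protein AGO1 carries the mature strand to messenger RNAs that pair with its seed. A summit near a precursor may therefore lie at the start site of the primary transcript, at the start site of a neighbour, or within a host gene. Danr (distal antenna-related) belongs to the Pipsqueak family of DNA-binding proteins and is known for its part in the development of the antenna and the eye.

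The mature strands of the loci described first are shown because their seeds tell which of them read the same targets. The sequences and coordinates come from RefSeq (Release 6, the assembly of dm6) and show the first-listed mature strand of each precursor. They are written 5′ to 3′ with the seed, bases 2 to 8, in capitals.
miR-279-3p (chr3R:29215651-29215672, plus strand): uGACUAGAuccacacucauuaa
miR-996-3p (chr3R:29217244-29217265, plus strand): uGACUAGAuuucaugcucgucu
miR-92a-3p (chr3R:25646560-25646581, plus strand): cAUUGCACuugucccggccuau
miR-92b-3p (chr3R:25651457-25651478, plus strand): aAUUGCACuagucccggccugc
miR-9a-5p (chr3L:19565140-19565162, plus strand): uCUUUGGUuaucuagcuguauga
bantam-3p (chr3L:642259-642281, plus strand): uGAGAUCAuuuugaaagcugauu
miR-282-5p (chr3L:3251038-3251061, plus strand): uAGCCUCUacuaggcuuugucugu
miR-275-3p (chr2L:7425853-7425875, plus strand): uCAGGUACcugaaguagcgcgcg
miR-305-5p (chr2L:7425979-7426001, plus strand): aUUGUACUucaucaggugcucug
The seeds of miR-279 and miR-996 are identical, and so are those of miR-92a and miR-92b. In both pairs the 2 precursors stand at the same locus and share their summits. The other 5 strands have seeds unlike any other strand printed here. The seed of miR-9a is also that of mir-9b and mir-9c, and the seed of miR-275 is also that of mir-306. Seeds of some precursors were not compared, so further precursors may carry any of the seeds printed here, those of both pairs included.

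The sequence around the strongest summits at these loci is shown so that the promoter elements found there can be seen in place. Each window runs 100 bases to either side of the summit on the plus strand of dm6, in RefSeq sequence, and capitals mark TATAAA and TATCGATA on either strand.
mir-279/mir-996 upstream summit (chr3R:29214356-29214556): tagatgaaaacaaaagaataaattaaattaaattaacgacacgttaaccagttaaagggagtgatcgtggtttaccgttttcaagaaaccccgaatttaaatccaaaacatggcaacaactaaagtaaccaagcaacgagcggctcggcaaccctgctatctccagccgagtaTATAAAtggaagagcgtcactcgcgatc
mir-279/mir-996 downstream summit (chr3R:29220034-29220234): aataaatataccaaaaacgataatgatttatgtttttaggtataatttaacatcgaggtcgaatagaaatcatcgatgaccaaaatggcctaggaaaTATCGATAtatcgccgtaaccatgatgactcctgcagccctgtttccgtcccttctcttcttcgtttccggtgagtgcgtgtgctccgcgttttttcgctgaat
mir-92a/mir-92b summit (chr3R:25646938-25647138): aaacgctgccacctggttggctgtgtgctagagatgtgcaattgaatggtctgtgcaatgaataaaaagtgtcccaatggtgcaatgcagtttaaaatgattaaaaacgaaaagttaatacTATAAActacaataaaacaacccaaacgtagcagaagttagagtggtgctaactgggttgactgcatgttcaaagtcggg
mir-9a summit (chr3L:19560726-19560926): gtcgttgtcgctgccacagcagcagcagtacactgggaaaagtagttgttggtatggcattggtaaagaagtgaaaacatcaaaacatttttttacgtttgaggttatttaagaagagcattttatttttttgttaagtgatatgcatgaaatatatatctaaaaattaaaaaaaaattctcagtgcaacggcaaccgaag
mir-282 summit (chr3L:3250194-3250394): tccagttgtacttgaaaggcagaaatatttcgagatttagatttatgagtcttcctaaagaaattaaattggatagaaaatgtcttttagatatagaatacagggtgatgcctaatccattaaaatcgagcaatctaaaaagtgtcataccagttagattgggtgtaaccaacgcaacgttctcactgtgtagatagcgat
bantam upstream summit (chr3L:640654-640854): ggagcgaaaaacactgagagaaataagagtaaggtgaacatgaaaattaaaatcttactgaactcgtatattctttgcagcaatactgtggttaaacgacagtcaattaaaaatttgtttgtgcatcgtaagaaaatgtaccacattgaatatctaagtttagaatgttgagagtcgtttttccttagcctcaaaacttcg
TATAAA is the core of the TATA box, and TATCGATA is the site of the DNA replication-related element factor at many housekeeping promoters. In the upstream window of mir-279/mir-996, TATAAA begins 33 bp before the annotated start of the host transcript lncRNA:CR31044, on its strand. TATCGATA lies at the downstream summit of the same locus, next to the start of the translation factor gene eEF1gamma. The windows of mir-9a, mir-282 and bantam held neither string.

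A summit lay within 5 kb of 43 of 198 microRNA loci (21.7%), where 15.4% of the bases of the 7 chromosomes lie that close to a summit. By precursor the count was 55 of 260 (21.2%). These loci took up 58 of the peaks, or 2.07% of the list, in 55 separate regions. From the list of replicate 1 alone the counts were 30 loci, 34 precursors and 38 summits, and from that of replicate 2 alone 30 loci, 38 precursors and 36 summits. Most of the 43 loci had 1 summit (31 loci), 9 had 2, and mir-4910, mir-4981 and mir-955 had 3. Loci with several precursors had a summit in 8 of 27 cases and single precursors in 35 of 171, and a longer locus offers more bases to lie near. By the same 5 kb window, 28.2% of protein-coding genes had a summit near a start site and 33.6% near any base of the gene. Among the other small RNA genes, 16.6% of tRNA genes and 40.9% of small nucleolar RNA genes, which sit mostly inside host genes, had a summit within 5 kb. The microRNA loci thus lay above the genome and the tRNA genes and below the protein-coding and small nucleolar RNA genes, with no test made of these differences.

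**Figure D1:**
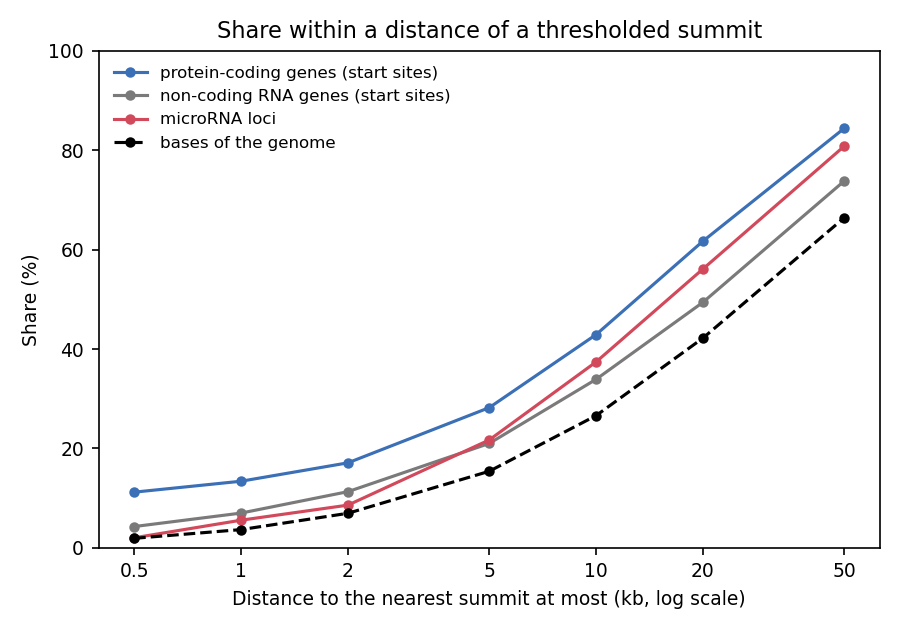
Share of microRNA loci (red), protein-coding genes (blue), non-coding RNA genes (grey) and bases of the genome (dashed black) that lie within a given distance of a thresholded summit. Genes are measured from any of their start sites, and the distance axis is in kb on a log scale. At 5 kb the red line is at 21.7% and the dashed line at 15.4%, while at the shortest distance, 500 bp, they stand at 2.02% and 1.91%.

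The distance between locus and summit was set beside that of the bases of the genome. Within 500 bp of a precursor there was a summit for 4 of 198 loci (2.02%), against 1.91% of all bases. Of protein-coding genes, 11.2% had a summit within 500 bp of any of their start sites. Within 1 kb the share was 5.56% of the loci and 3.67% of the bases. Within 2 kb it was 8.59% and 6.95%, and within 10 kb it was 37.4% and 26.6%. The share of loci was thus nearly that of the bases at 500 bp and above it at 1, 2, 5 and 10 kb. No summit lay inside a precursor. Over the 58 summits the distance to the nearest precursor had a median of 2653.5 bp and ran from 159 to 4943 bp. The loci just inside the window were mir-3641 at 4787 bp, mir-2501 at 4930 bp and mir-2281 at 4943 bp. Just outside were the mir-100/mir-let7/mir-125 cluster at 5165 bp, mir-4983 at 5179 bp and the mir-2a-2/mir-2a-1/mir-2b-2 cluster at 5549 bp.

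**Figure D2:**
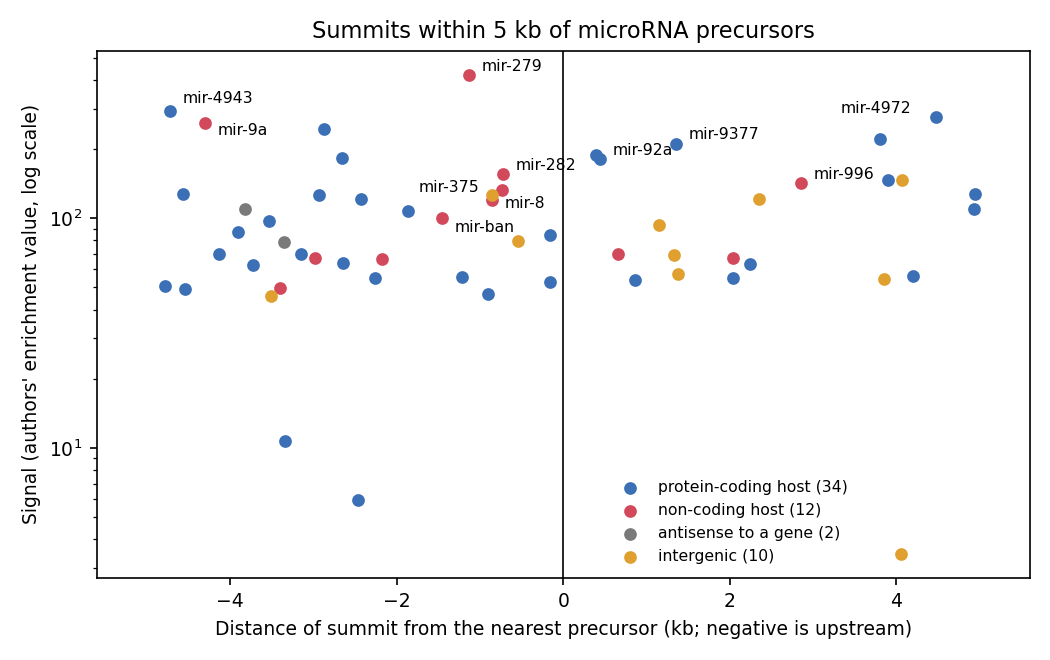
Signal of each of the 58 summits (log axis) against its distance from the nearest precursor in kb, negative upstream of the precursor on its own strand, coloured by the setting of the locus. The strongest summit, at mir-279, stands 1129 bp upstream, and 36 summits lie upstream against 22 downstream.

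Upstream summits numbered 36 and downstream summits 22. At loci in a non-coding host the split was 9 upstream and 3 downstream, and in a protein-coding host 22 and 12. Intergenic loci had 3 upstream and 7 downstream. Of the 58 summits, 32 (55.2%) lay within 500 bp of an annotated start site, here called a promoter, against 46.0% of all peaks. Introns held 15 (25.9%, all peaks 37.7%), intergenic sequence 9 (15.5%, all peaks 13.4%), exons outside coding sequence 2, and coding sequence 0.

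The setting of the locus was read from the gene that holds the precursor on its own strand, the host, and a merged locus counts as hosted when any of its precursors is. A summit lay near 8 of 31 loci in a non-coding host (25.8%), beside 19.0% of the bases of non-coding RNA genes. Among the 8, mir-317/mir-277/mir-34, has its summit near a precursor with no host, and 7 of 31 (22.6%) have it near a hosted precursor. A summit lay near 28 of 124 loci in a protein-coding host (22.6%), beside 16.8% of the bases in introns of protein-coding genes. Intergenic loci had a summit in 5 of 27 cases (18.5%), beside 8.97% of intergenic bases. By precursor the shares were 8 of 46 in a non-coding host (17.4%), 30 of 136 in a protein-coding host (22.1%) and 14 of 51 between genes (27.5%). In a non-coding host the share was therefore above the bases of the same kind by locus and below them by precursor. Precursors of a cluster share their summits, so the counts by precursor are not independent. The 14 between genes include the 7 of the mir-310 to mir-992 cluster, which share 1 summit. The 46 in a non-coding host include the 8 of the mir-309 cluster, which have none. Of the precursors in protein-coding hosts, those in introns had a summit in 24 of 100 cases and those in exons in 6 of 36 (16.7%). None of these differences was tested. Loci antisense to a gene had one in 2 of 16 cases (12.5%). Mirtrons, introns whose ends are the ends of the precursor and which bypass Drosha, had a summit within 5 kb in 7 of 34 cases. By chromosome arm the count was 12 of 39 loci on 2L (16.3% of its bases), 9 of 40 on 2R (15.4%), 7 of 30 on 3L (16.2%), 8 of 48 on 3R (14.8%) and 7 of 39 on X (17.2%). Neither of the 2 loci on chromosome 4 had one.

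**Figure D3:**
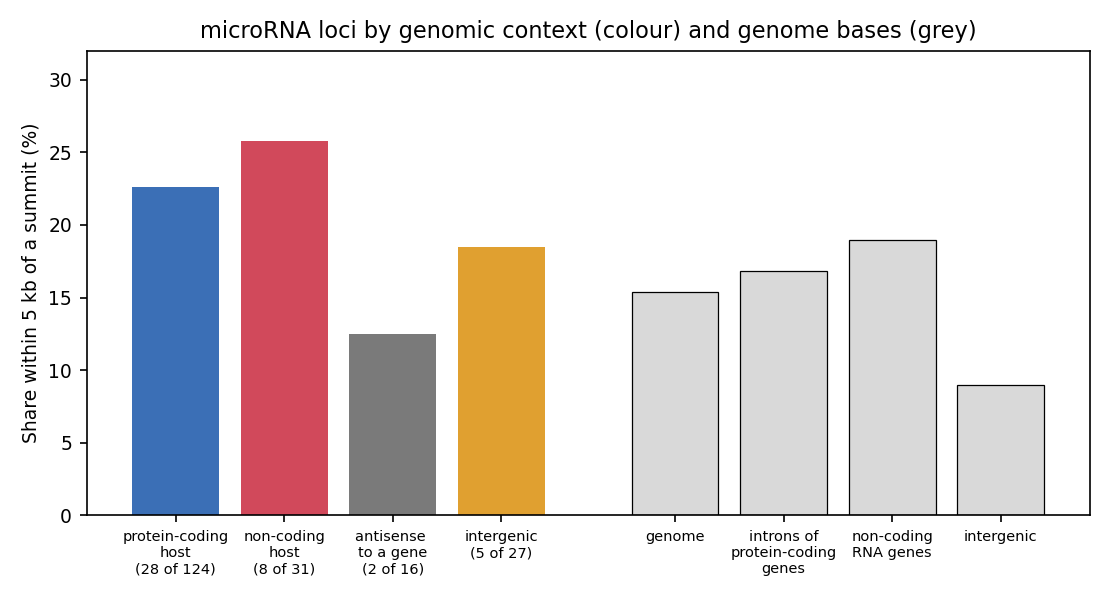
Percent of microRNA loci with a thresholded summit within 5 kb, by setting (coloured bars, counts under each), beside the percent of bases within 5 kb of a summit in the genome, in introns of protein-coding genes, in non-coding RNA genes and between genes (grey bars). The coloured bars run from 12.5% to 25.8% and the grey bars from 8.97% to 19.0%.

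Hosts were also examined by their own start sites, whatever their distance from the precursor. A summit lay within 500 bp of a start of 4 of 32 non-coding hosts (12.5%), where 4.28% of all non-coding RNA genes have one. For protein-coding hosts it was 22 of 124 (17.7%), where the share over all protein-coding genes is the 11.2% given above. These shares were not adjusted for gene length or for the number of annotated starts. The 4 non-coding hosts were lncRNA:CR31044 (mir-279 and mir-996), lncRNA:CR43626 (mir-282), lncRNA:CR43650 (mir-8) and lncRNA:CR43857 (mir-275). In 9 of the 22 protein-coding hosts the precursor also stood within 5 kb of that summit. In the other 13 it stood farther along the gene, as for mir-2b-1 in Btk, whose promoter summit had a signal of 392 and lay 19137 bp from the precursor.

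The strongest summit near any microRNA belonged to the mir-279/mir-996 locus. miR-279 is known for keeping carbon dioxide-sensing neurons from forming in the wrong place, and miR-996 shares its seed and much of its role. The upstream summit reached a signal of 421 (245 in replicate 1, 171 in replicate 2) and ranked 63 in the list of 2799. It lay 1129 bp upstream of mir-279 and 106 bp upstream of the start of lncRNA:CR31044, the primary transcript that holds both hairpins in its exons. The downstream summit, 2854 bp beyond mir-996 and 38 bp from the start of eEF1gamma, had a signal of 142, with 78.7 and 61.4 in the replicates. Both summits were in the lists of both replicates and in the conservative list, and at each of them replicate 1 was the higher.

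**Figure D4:**
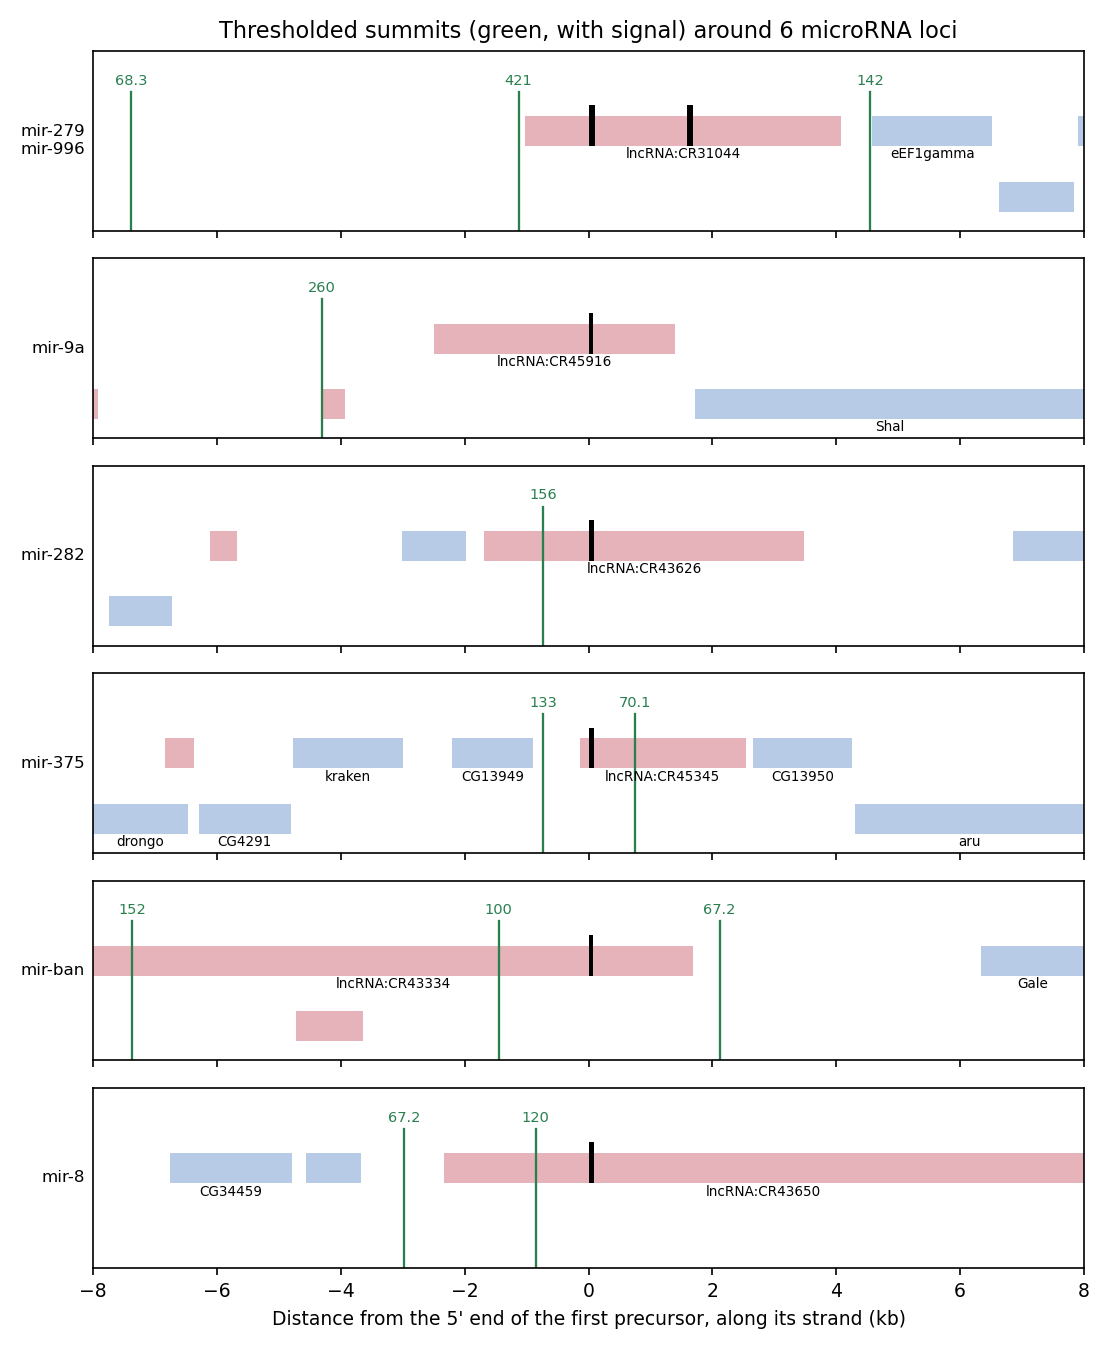
Maps of 6 microRNA loci in kb from the 5′ end of the first precursor, along its strand: precursors (black), non-coding genes (pink), protein-coding genes (blue), with genes of the other strand in the lower row, and summits (green lines with their signal). At mir-279/mir-996, mir-282 and mir-8 a summit stands near a start of the host transcript, while at bantam a summit of signal 152 stands at -7373 bp, outside the 5 kb window.

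mir-282 and mir-8 also had a summit just ahead of a start site of the long non-coding host, but the layout differed from that of mir-279/mir-996. The mir-282 summit and the nearer mir-8 summit lay inside the annotated host, ahead of a further start site within it. The upstream mir-279/mir-996 summit lay ahead of the whole host. At mir-282 the signal was 156, with 86.9 in replicate 1 and 70.8 in replicate 2, at 728 bp upstream of the precursor and 300 bp from a start of lncRNA:CR43626. miR-8 promotes body growth through insulin signalling and targets ush and Atrophin (Gug). Its nearer summit had a signal of 120, with 57.5 and 61.7 in the replicates, at 853 bp upstream and 110 bp from a start of lncRNA:CR43650. Its farther summit, 2981 bp upstream, had a signal of 67.2, with 34.2 and 37.3, and stood 644 bp ahead of the first start of the host and was in neither replicate's own list. At the mir-275/mir-305 locus the signal was 66.3, with 35.1 and 30.5, at 2173 bp upstream of mir-275 and 198 bp from the start of lncRNA:CR43857. That summit, too, was in neither replicate's own list, though in the conservative list.

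mir-9a, whose product limits the number of sensory organ precursors by repressing senseless (sens), reached a signal of 260 (155 in replicate 1, 105 in replicate 2). This summit ranked 172 and lay 4305 bp upstream of the precursor. It was 1810 bp ahead of the start of the host lncRNA:CR45916 and 364 bp inside the start of a second non-coding gene, lncRNA:CR44676. Which of the transcripts it belongs to cannot be told from the position.

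Bantam promotes growth and blocks cell death by repressing hid. Its upstream summit reached a signal of 100 (45.5 in replicate 1, 58.5 in replicate 2), at 1454 bp from the precursor and inside the host lncRNA:CR43334, 1040 bp from a start. Its downstream summit, at 2036 bp, had a signal of 67.2, and it overlapped no ranked peak of replicate 1, against a signal of 42.1 in replicate 2. The replicates therefore gave both summits in replicate 2 and the upstream summit alone in replicate 1. At mir-375 a summit 733 bp upstream had a signal of 133, with 49.4 and 85.7 in the replicates, and another 658 bp downstream had 70.1, with 37.2 and 34.2. The last of these loci, mir-317/mir-277/mir-34, is known from work on ageing. Its non-coding host, lncRNA:CR43459, holds mir-277 and mir-34, which lay 12297 and 13211 bp from the summit, while mir-317, 3401 bp from it, lies in no host. This summit had a signal of 49.5, and it too overlapped no ranked peak of replicate 1, with 38.0 in replicate 2.

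Protein-coding hosts held 8 of the 12 loci of highest signal, beside 28 of all 43 loci with a summit. At 5 of the 8 the summit was at a start site of the host, beside 9 of the 28. At mir-4943 in CG5953 the signal was 291, with 158 and 139 in the replicates. At mir-4972 in for (foraging, a cyclic GMP-dependent protein kinase) it was 276, with 151 and 129. At mir-9382 in MRP, a gene of an ABC-type transporter, it was 245, with 115.5 and 124.9. The replicates were close at all of these, and they were less so at the next pair. At mir-9383 in CG12241 the signal was 182, with 52.7 in replicate 1 and 130 in replicate 2. At mir-92a/mir-92b in jigr1 it was 181, with 68.7 and 114. miR-92a is expressed in neuroblasts together with jigr1, and miR-92b acts on Mef2 in muscle. The summit at this locus lay 438 bp downstream of mir-92a, inside the host, and 208 bp ahead of a further start site of jigr1.

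At the other 3 of these 8 loci the summit was not at a start of the host. mir-9377, in Tis11, a gene of an RNA-binding protein that destabilises messenger RNAs, had both of its summits in host introns. The summit at 1353 bp had a signal of 211, with 131 and 80.9 in the replicates, and the summit at 392 bp had 188, with 88.4 and 92.4. mir-1004 is a mirtron in CG43707, and its summit of signal 221, with 121 and 105, stood 207 bp ahead of the start of bowl, a zinc finger gene of the odd-skipped family. mir-1006, in the proton pump gene VhaSFD, had a summit of signal 147, with 53.8 and 95.1, in an intron of its neighbour Cyt-c-p, the gene of cytochrome c.

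In all, 4 loci had a summit within 500 bp of a precursor. Beside mir-92a and mir-9377 these were mir-9378, at 159 bp upstream in an intron of CG17124, and mir-2491, at 161 bp upstream in an intron of fog. At mir-9378 the signal was 84.9, with 52.1 and 33.8, and at mir-2491 it was 52.9, with 24.0 and 26.1. The second summit of the mir-4970/mir-9378 locus, 4544 bp upstream of mir-4970 and 4 bp from the start of CG12299, had 49.4, with 22.0 and 32.7. This second summit and that of mir-2491 were in neither replicate's own list, nor in the conservative list.

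Other loci in protein-coding hosts had 2 or 3 summits. At mir-4962 in the tousled-like kinase gene Tlk the signals were 126, with 64.9 and 63.0, and 87.1, with 50.8 and 36.4. At mir-4910 in CG3225 they were 70.1, with 36.1 and 37.6, and 62.2, with 35.1 and 31.1, and a further row of signal 10.7 overlapped a stronger one. At both of these loci the replicates lay within 2-fold of each other. At mir-281-2/mir-281-1 in Oda the signal was 54.9, with 48.3 in replicate 1 and 11.8 in replicate 2, and a row of 5.91 overlapped it. A like gap stood at mir-1013 in wts (warts, a kinase of the Hippo pathway), where the joint signal was 54.9 and the replicates had 45.3 and 9.18. Both of these summits were in the list of replicate 1 and not in that of replicate 2, nor in the conservative list.

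The remaining loci in protein-coding hosts with a summit ran from 46.6 to 128 in signal. They were mir-965 (46.6, in kis), mir-2495 (63.2, in qtc, at the start of the ribosomal protein gene RpL37A), mir-4980 (97.6), mir-987 (56.1, at the start of Myd88), mir-4967 (55.7), mir-308 (53.6, in the ribosomal protein gene RpS23), mir-4982 (121, at a start of its host Hs3st-A), mir-2501 (109, at the start of msk), mir-4968 (107, in Mob2), mir-2281 (128), mir-3644 (69.8), mir-9373 (63.9), mir-3641 (50.6) and mir-9370 (128, at a start of its host Amun).

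Intergenic and antisense loci made up the last 7. At mir-955 all 3 summits were at start sites of CG14968, with signals of 147, 122 and 57.1. Their replicate signals were 74.2 and 75.5, then 74.0 and 46.6, then 35.2 and 24.9. At mir-4981 the signals were 126, with 46.0 and 93.1, and 54.3, with 30.5 and 27.9, and a row of 3.46 overlapped the latter. The replicates were nearly equal at the strongest summit of mir-955, and replicate 2 was more than 2-fold higher at that of mir-4981. At mir-2496 they were 79.3, with 50.01 and 34.4, and 69.2, with 22.4 and 49.2. The mir-310/mir-311/mir-312/mir-313/mir-2498/mir-991/mir-992 cluster had 1 summit of signal 93.7, with 41.3 and 51.5, at 466 bp from the start of qsm. The summits of mir-314/mir-956 (45.7), mir-87 (109, at the start of CG4709) and mir-4957 (78.8, at a start of the topoisomerase gene Top1) completed the list. In all, 19 of the 58 summits were at the promoter of a gene that was not the host of the microRNA. A host was present for 44 of the 58, so at the others any promoter summit falls in this count by definition.

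Peaks near microRNA loci were about as strong as other peaks. Their median signal was 86.0, against 80.3 over the whole list, and the highest peak of that list had 1356. The list of replicate 1 held 36 of the 58 and that of replicate 2 held 34. Both lists held 28 of them (48.3%, all peaks 39.4%), neither held 16 (27.6%, all peaks 25.6%), and the conservative list held 46 (79.3%, all peaks 74.4%). Over the 56 peaks with a ranked peak in each replicate, the signals were within 2-fold of each other in 48 (85.7%, all peaks 85.5%), with medians of 47.2 in replicate 1 and 45.7 in replicate 2.

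**Figure D5:**
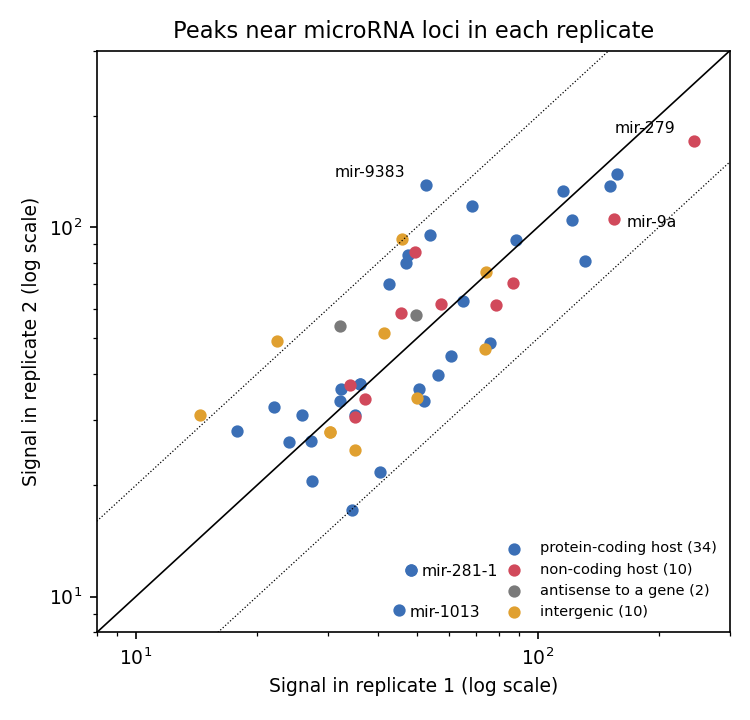
Signal in replicate 2 against signal in replicate 1 (both log axes) for the 56 peaks near microRNA loci with a ranked peak in each replicate, with the line of equal signal and dotted lines at a 2-fold difference. The points follow the line of equal signal, with mir-281-1 and mir-1013 far below the lower dotted line and mir-9383 above the upper one.

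The base composition of these peaks was close to that of the others. Within 50 bp of the summit, A and T made up 63.5% ± 11.0 (SD, n = 58 peaks), and 66.3% ± 9.62 (SD, n = 2778) over all peaks on the 7 chromosomes. Peaks are not replicates, so these SDs describe the spread among peaks. In the same windows, searched on both strands, TATAAA was present in 8 of 58 (13.8%, all peaks 22.6%) and TATCGATA in 2 of 58 (3.45%, all peaks 1.01%). ACAAT, a Sox-type core, was present in 32.8% (all peaks 30.5%), TAATTA, the homeodomain core, in 6.90% (all peaks 9.32%), and GAGAG, the GAGA factor core, in 8.62% (all peaks 9.58%). CACGTG, the E-box, was present in 1 window (1.72%, all peaks 0.648%) and TCAGTT, an initiator, in 4 (6.90%, all peaks 6.34%). Over windows of 201 bases as printed above, TATAAA was present in 27.6% (all peaks 36.4%).

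Grouped by known role, the precursors are to be read against the 21.2% of all placed precursors with a summit within 5 kb, and the groups are small. Of 12 precursors for growth and cell death, 2 had one (16.7%), bantam and mir-308. The 9 precursors of mir-2, mir-13 and mir-11, whose shared seed is AUCACAG and which repress cell death genes of the rpr group, had none within 5 kb. Seeds of precursors on 2R, mir-308 included, were not compared, so these 9 need not be every precursor with that seed. Among the 9, the mir-2a/mir-2b-2 cluster in spi had a summit 5549 bp away with a signal of 254, at a start of the host. mir-14, which also limits cell death, had its nearest summit 6564 bp upstream, and its signal of 522 was higher than any inside the window.

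Of 13 precursors of the neural and sensory organ group, 3 had a summit (23.1%), mir-9a, mir-279 and mir-996, a share near that of all precursors. mir-263a was also chosen for this group, but no precursor is annotated under that symbol and it was not counted. The nearest summit was 15253 bp from mir-7 and 52081 bp from mir-124, the neuronal microRNA conserved in vertebrates. Of the growth signalling and metabolism group 3 of 7 had one (42.9%): mir-8, and mir-275 and mir-305, which share a summit. In the muscle and heart group mir-92a and mir-92b, which share a summit, had one, and mir-1 had its nearest summit 157968 bp away. Wing and appendage microRNAs had one in 2 of 4 cases, mir-9a and mir-8, both already named.

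The remaining groups had no precursor within 5 kb of a summit. For developmental timing these were mir-let7, mir-100, mir-125 and mir-34, although mir-34 shares a merged locus with mir-317. The nearest summit to mir-let7 was at 5478 bp with a signal of 146. For the homeotic clusters the nearest summit was 57348 bp from mir-iab-4 and 9246 bp from mir-10. The 8 precursors of the mir-309 cluster, which clears maternal messenger RNAs in the early embryo, lay at least 28481 bp from a summit, and mir-309 itself 29471 bp. A count of 0 here describes 3 groups of a few loci each.

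Genes of the microRNA pathway were listed together with 5 of the small interfering RNA branch. A summit lay within 5 kb of 15 of these 25 genes, beside the 33.6% of all protein-coding genes. Within 1 kb of a start site 7 of 25 had one, beside 13.4%. Neither share was adjusted for gene length or for the number of annotated starts. Of the 5 genes of the small interfering RNA branch, 3 had a summit within 5 kb and 2 within 1 kb of a start. At DCP2, r2d2 and armi the summit was nearer to the start of another gene. The count of 15 rested on both libraries, since the list of replicate 1 alone gave 8 and that of replicate 2 alone gave 9. In the nuclear step, Cbp20, a subunit of the cap-binding complex, had a signal of 60.3 at 46 bp from its start, with 21.2 and 40.3 in the replicates. In the effector step, gw, the AGO1 partner GW182, had 55.6, with 28.7 in replicate 1 and no ranked peak in replicate 2. The deadenylase subunits twin and Pop2 had 67.1, with 27.9 and 33.6, and 62.7, with 28.1 and 33.4. The decapping enzyme gene DCP2 had 59.2 at the promoter of dbo, with 37.0 in replicate 1 and no ranked peak in replicate 2. In the small interfering RNA branch, r2d2 had 112 at a promoter it shares with Herp, with 74.1 and 40.5, and armi had 92.3 at the promoter of eIF5B, with 31.5 and 70.6. The replicates thus differed by less than 2-fold at r2d2, twin, Pop2 and Cbp20 and by more at armi. The summits of Cbp20, gw, twin, Pop2 and DCP2 were in neither replicate's own list. Those of Cbp20, gw and DCP2 were not in the conservative list either. The core enzymes drosha and Dcr-1 had no summit within 5 kb. pasha had one of signal 388, with 175 and 213, at 1791 bp from its start and 26 bp from that of its neighbour Mnat9.

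Of 21 genes known as microRNA targets, 13 (61.9%) had a summit within 5 kb, beside the 33.6% of all protein-coding genes, with no adjustment for gene length. Dl was also on the chosen list but is not among the 21 counted. The list was chosen with earlier results of these data known. Within 1 kb of a start 3 had one (14.3%), which is close to the 13.4% of all protein-coding genes. The values of these 3 are given as a description. hid, the cell death gene repressed by bantam, had a signal of 141 at 303 bp from its start, with 46.3 and 92.5 in the replicates. aop, an ETS-domain repressor targeted by miR-7, had 90.7, with 41.5 and 58.9. ush, targeted by miR-8, had 57.1, with 39.7 and 15.95, in neither replicate's own list and not in the conservative list. Mef2, the muscle factor targeted by miR-92b, had its nearest summit just past that limit, at 1081 bp from a start, with a signal of 493 and 262 and 225 in the replicates, at the promoter of Pal1. sens, targeted by miR-9a, had no summit within 5 kb, and its nearest was 44771 bp from a start, although mir-9a had one. aop had a summit, although mir-7 had none within 5 kb. hid and bantam, ush and mir-8, and Mef2 and mir-92b had summits within 5 kb of both genes. The pairs named here thus went both ways, and no test was made of them. The other targets among the 21 were not set beside their microRNAs.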

How the data were processed

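Peak lists in dm6 coordinates were used, per the file headers and labels. The joint thresholded list of both replicates was the main list, and the conservative list and each replicate's thresholded and ranked lists served for comparison. Which aligner and peak caller were used is not given in the sources used here. Each deposited score transforms the IDR and ends at 1000. Each deposited signal is the enrichment value the authors computed, used only to describe and rank peaks. The labels do not say whether replicates came from separate parents.

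A summit is the peak start plus the deposited summit offset. Signals per replicate come from the strongest ranked peak of that replicate that overlaps the peak. Genes came from Ensembl release 115 (BDGP6), whose sequence is that of dm6, and sequences from RefSeq. Computations used Python 3.11.15, numpy 2.4.6 and matplotlib 3.10.9. Distances and merging were tested on simulated data. Named in full were the 12 loci of highest signal, loci with 2 or more summits or a summit within 500 bp, a list of well-known microRNAs, and pathway and target genes with a summit within 1 kb of a start. Alternatives were other lists, score and signal thresholds, windows and merging distances. The members, lists and rules were chosen with earlier results of these data known, and 0 tests were made.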

Additional observations from a re-analysis of the deposited data

How the results depend on the processing

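The count of 43 loci stayed between 35 and 46 with the conservative list, a score of 1000 only, any base of the peak in place of its summit, or merging within 1 or 50 kb. With each replicate's own list it was 30 in both, with 34 to 38 precursors and 36 to 38 summits. The genome share fell with it, to 10.1% and 9.77% of bases for 15.2% of loci. Keeping only peaks at or above the median signal left 26 loci, 34 precursors and 30 summits. Windows of 1, 2 and 10 kb gave 11, 17 and 74 loci, 11, 20 and 91 precursors, and 12, 20 and 127 summits, by construction. The median signal of 86.0 became 107 in the conservative list, 109 at a score of 1000, 131 above the median, and 102 and 97.1 in windows of 1 and 2 kb. In the replicate lists it was 53.2 to 66.6, where all peaks of those lists had medians of 56.1 and 56.3. The 15 pathway genes became 9 in the conservative list, 8 to 9 in the replicate lists, 9 above the median signal and 8 in a window of 1 kb. The cause of these shifts was not tested where fewer peaks do not give it. No paired analysis was possible because the series has 1 group. Depth is unknown, so no precision from reads can be given.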

Other observations

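Between 5 and 10 kb from a summit stood 31 further loci. The highest signal among them was 729, at 6278 bp from mir-1001, followed by 522 at mir-14 and 254 at the mir-2a/mir-2b-2 cluster. In the ranked list of both replicates, which holds peaks of all scores, 200 of the 205 precursors without a thresholded summit had a peak within 5 kb, with a median signal of 33.1 for the strongest.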
